A study of Mus musculus with 6 samples.

Results

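Genomic imprinting leaves a gene active on only 1 of its parental copies, and 10 imprinted genes that act on fetal and postnatal growth were described here in mouse muscle given the transcription factor TFEB. The genes were Igf2, Mest, Peg3, Plagl1 and Dlk1, which are expressed from the paternal copy, and H19, Meg3, Rian, Cdkn1c and Grb10, which are expressed from the maternal copy, Grb10 with the exception of the brain. They were selected on the differences between the TFEB and GFP arrays of this same series, measured as log2 expression values. These differences are therefore given as a description, with no p-value printed. The threshold applied to the members below uses an adjusted p, and its calls for them are likewise a description and not a test. Every probe set whose only gene symbol was 1 of the 10 was kept, which gave 21 probe sets of 9 genes out of 22626 probe sets and 12393 genes on the array. No probe set carried H19 as its only symbol, and no value is given for H19.

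Imprinted genes of this kind are strongly expressed in the embryo and most are turned down after birth. Igf2 is a secreted growth factor of the fetus, whereas Grb10 and Cdkn1c restrain growth, the former by binding activated insulin and insulin-like growth factor receptors and the latter by inhibiting cyclin-dependent kinases. In adult muscle, Peg3 (also called Pw1) is known from satellite cells and interstitial progenitor cells, and Dlk1 and Igf2 from developing and regenerating fibres. Plagl1 encodes a zinc finger transcription factor known to act on other imprinted genes, Igf2 and the H19 region among them.

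The muscle of wild-type C57BL/6 mice was injected with a viral vector (adeno-associated virus, AAV), which delivered either murine Tfeb or green fluorescent protein (GFP). Each group has 3 Affymetrix arrays, called biological replicates in the labels. The sample titles do not say whether each array came from a separate mouse. The labels give an age of 1 month, the study speaks of adult animals, and neither names the muscle that was profiled. Both vectors used the cytomegalovirus promoter, which is active in many cell types, so that expression need not be limited to fibres. The values are log2 expression values, on which a difference of 1 is a 2-fold change.

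Tfeb itself was read by 1 probe set, at 8.49, 8.47 and 8.58 in the GFP-labelled arrays and at 7.92, 7.68 and 7.61 in the TFEB-labelled arrays. It was thus lower where the vector was expected to raise it (log2 difference -0.77, adjusted p = 0.0024, limma). The sources used here do not say whether the probes of this set lie within the delivered cDNA, so this probe set does not check the labels, and the directions below are those the labels give. The study examined TFEB expression in injected muscle by other means, which were not analysed here. The muscle fibre genes Ckm, Acta1, Myh1, Myh4, Tnnc2, Mb, Des and Casq1 averaged 13.68 to 13.75 in the GFP-labelled and 13.77 to 13.8 in the TFEB-labelled arrays, and 0 of the 8 were past the threshold used below. GFP-labelled array 2 stood apart from its group, with 844 and 725 probe sets more than 2-fold from replicates 1 and 3, against 87 between those. None of the 21 member probe sets was more than 2-fold apart within any pair of GFP-labelled arrays. A log2 gap between the 3′ and 5′ probe sets of Actb, a measure of RNA integrity, ran from 0.0373 to 0.0774 in the GFP-labelled and from 0.218 to 0.341 in the TFEB-labelled arrays, and its part in the results was not tested.

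Several member transcripts are hosts of microRNAs, short regulatory RNAs whose seed, bases 2 to 8, pairs with the target. The array does not read microRNAs, and the sequences are shown because their host transcripts are among those described below. RefSeq (GRCm38.p6) places mmu-miR-483-3p in Igf2 (chr7:142654932-142654952, minus strand), mmu-miR-335-5p in Mest (chr6:30741314-30741336, plus strand), mmu-miR-770-5p in Meg3 (chr12:109563710-109563731, plus strand) and mmu-miR-370-3p in Rian (chr12:109618305-109618326, plus strand). The mature sequences follow, 5′ to 3′, with the seed in capitals.
mmu-miR-483-3p: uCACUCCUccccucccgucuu
mmu-miR-335-5p: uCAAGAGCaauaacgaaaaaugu
mmu-miR-770-5p: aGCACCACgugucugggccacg
mmu-miR-370-3p: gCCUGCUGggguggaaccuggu
The seeds of these 4 microRNAs differ from one another. Of the mature microRNAs that RefSeq lists within the member genes, Rian holds 6, Meg3 3, and Igf2, Mest and H19 2 each.

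TFEB acts through E-box motifs, CACGTG, and its lysosomal targets often carry the longer form TCACGTGA, whereas Plagl1 binds GC-rich sites such as GGGGCCCC. These 3 motifs, all of which read the same on both strands, were searched in 15 RefSeq promoters of 8 member genes, each of 300 bases from 250 before to 50 after the gene start. The table used held no promoter of H19 or Cdkn1c. CACGTG was found in 1 of the 15, that of Plagl1, against 7.15% of all 32851 promoters, and GGGGCCCC in 1 of the 15, that of Peg3, against 1.08% of all. TCACGTGA, which holds CACGTG within it, was in none of the 15 and in 0.974% of all promoters. The upstream 250 bases of both promoters are printed with the motif in capitals, 5′ to 3′ on the strand of the gene, Plagl1 at chr10:13090582-13090831 (plus strand) and Peg3 at chr7:6730420-6730669 (minus strand) of GRCm38.p6.
Plagl1: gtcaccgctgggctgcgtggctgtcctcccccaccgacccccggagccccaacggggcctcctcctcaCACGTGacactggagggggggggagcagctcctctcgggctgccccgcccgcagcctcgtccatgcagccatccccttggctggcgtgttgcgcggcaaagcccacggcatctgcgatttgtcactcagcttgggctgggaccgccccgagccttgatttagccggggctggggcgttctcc
Peg3: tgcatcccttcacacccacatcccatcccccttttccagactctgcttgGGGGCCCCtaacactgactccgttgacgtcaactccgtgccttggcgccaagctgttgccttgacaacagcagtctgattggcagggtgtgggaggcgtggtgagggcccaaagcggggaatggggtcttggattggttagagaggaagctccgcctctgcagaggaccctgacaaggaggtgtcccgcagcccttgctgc
The motif began 182 bases before the start in Plagl1 and 201 bases before it in Peg3. A match of letters is a description and not a binding site. The 15 promoters had a median of 59.3% G and C and 13 CpG dinucleotides, against 52.7% and 7 over all promoters, and ranged from 0 CpG in Rian to 45 in 1 of the 2 Grb10 promoters.

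Most of the imprinted growth genes were higher in the TFEB-labelled muscles, paternally and maternally expressed ones alike. A probe set was counted as past the threshold at a Benjamini-Hochberg adjusted p under 0.05 over all probe sets and a fold change of at least 1.5. Of the 21 member probe sets, 16 were past it with higher values in the TFEB-labelled arrays and 0 with lower values, while over the whole array 7.51% of probe sets were past it as higher and 6.11% as lower. In 18 of the 21, all TFEB-labelled arrays lay above all GFP-labelled arrays, as they did in 20.1% of all probe sets. Since this contrast was known when the genes were selected, nothing is read from these shares. Leaving out any 1 array, GFP-labelled array 2 included, left 16 or 17 of the 21 past the threshold. These counts reuse the arrays on which the genes were selected, so nothing is read from them either.

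**Figure D1:**
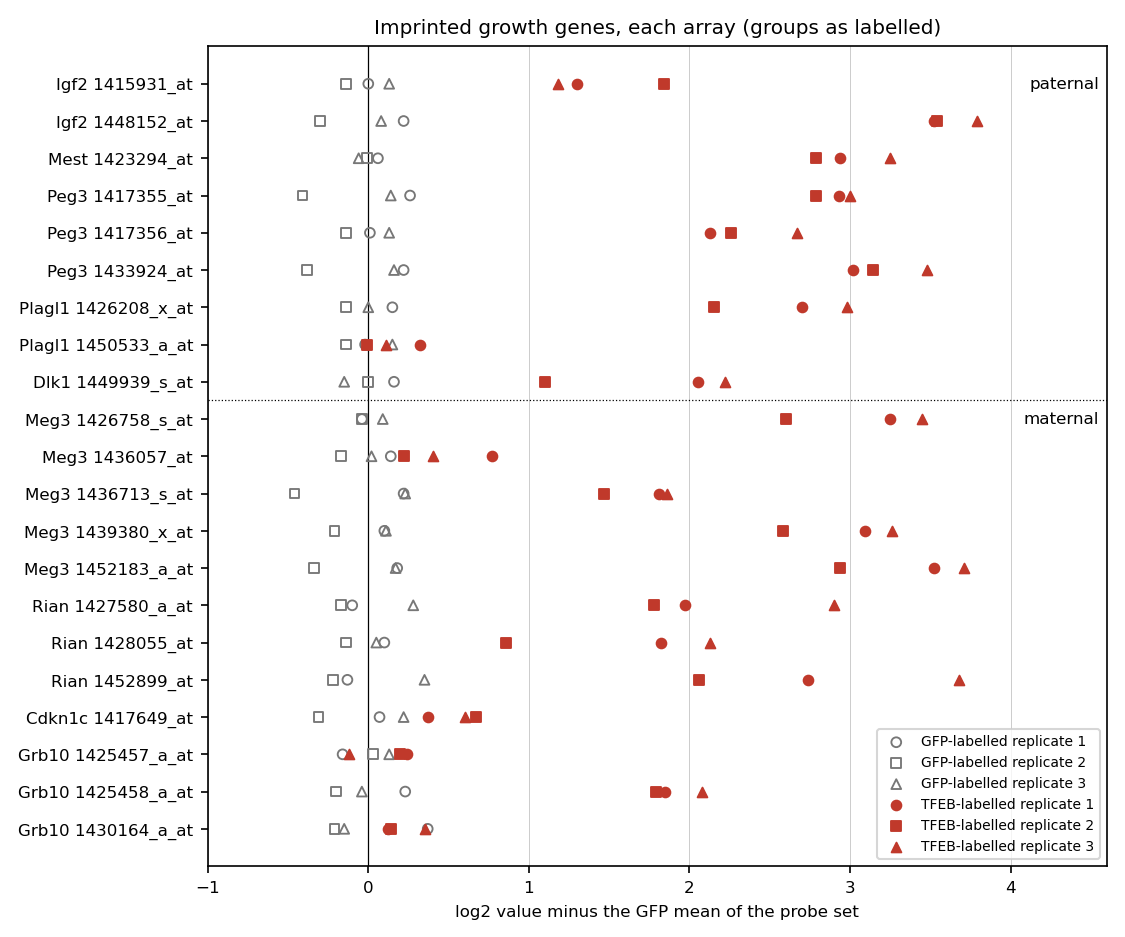
Each of the 21 member probe sets is a row, and each point is 1 array, placed by its log2 value minus the mean of the GFP-labelled arrays (open grey, GFP-labelled; filled red, TFEB-labelled; the shape gives the replicate). In 18 rows every red point lies to the right of every grey point, and the groups overlap for Plagl1 1450533_a_at, Grb10 1425457_a_at and Grb10 1430164_a_at.

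Among the paternally expressed genes, 8 of 9 probe sets were past the threshold, with a median log2 difference of 2.61. Igf2, the fetal growth factor, was read by 2 probe sets. The brighter, 1448152_at, read 8.20, 7.68 and 8.06 in GFP-labelled arrays 1 to 3 and 11.50, 11.52 and 11.77 in TFEB-labelled arrays 1 to 3. The groups were far apart, with a gap of 3.30 between the highest GFP-labelled and the lowest TFEB-labelled array, and the log2 difference was 3.62 ± 0.15 (SE, n = 3 per group), which is 12.3-fold. The second Igf2 probe set, 1415931_at, read 4.52, 4.38 and 4.65 against 5.82, 6.36 and 5.70. It pointed the same way with a smaller difference of 1.44 ± 0.18, or 2.72-fold, and here TFEB-labelled array 2 was the highest.

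Mest, which encodes a member of the alpha/beta hydrolase fold family, was tightly grouped. Its only probe set read 6.10, 6.03 and 5.98 in the GFP-labelled arrays and 8.98, 8.83 and 9.29 in the TFEB-labelled arrays. The spread within either group was small beside the log2 difference of 3.00 ± 0.12 (SE, n = 3 per group), which is 7.98-fold.

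Peg3, a large zinc finger protein, was read by 3 probe sets that were all higher. The brightest, 1433924_at, read 7.34, 6.74 and 7.28 against 10.14, 10.26 and 10.60, a log2 difference of 3.22 ± 0.19 or 9.30-fold. GFP-labelled array 2 was the lowest array there, and also for 1417355_at, which read 7.18, 6.51 and 7.06 against 9.85, 9.71 and 9.92 (2.91 ± 0.18, 7.51-fold). The dimmest, 1417356_at, read 5.42, 5.27 and 5.54 against 7.54, 7.67 and 8.08 (2.36 ± 0.15, 5.12-fold). The groups were separate in all 3, and the difference varied by less than 1 log2 unit among them.

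Plagl1 was read by 2 probe sets that went apart. The bright one, 1426208_x_at, read 7.54, 7.25 and 7.39 against 10.09, 9.54 and 10.37, with a log2 difference of 2.61 ± 0.21 or 6.09-fold. The suffix x marks a set whose probes can also match other transcripts. The other set, 1450533_a_at, read 3.41, 3.29 and 3.58 against 3.75, 3.42 and 3.54, and its groups overlapped. Its GFP mean lay at percentile 8.69 of all probe sets, close to the floor of the array, and its log2 difference was 0.15 ± 0.12.

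Dlk1, a membrane protein with epidermal growth factor repeats that is related to the ligands of Notch, had the widest range among the TFEB-labelled arrays of the paternal probe sets. Its probe set 1449939_s_at read 5.37, 5.21 and 5.06 in the GFP-labelled arrays and 7.26, 6.31 and 7.43 in the TFEB-labelled arrays. TFEB-labelled array 2 was about 1 log2 unit under its fellows, yet lay 0.94 above the highest GFP-labelled array. The log2 difference was 1.78 ± 0.28 (SE, n = 3 per group), or 3.44-fold.

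Among the maternally expressed genes, 8 of 12 probe sets were past the threshold, with a median log2 difference of 1.81. Meg3, a noncoding RNA transcribed from the same imprinted region of chromosome 12 as Dlk1 but from the other parental copy, was read by 5 probe sets. Its brightest, 1439380_x_at, read 9.17, 8.86 and 9.18 against 12.16, 11.65 and 12.33, a log2 difference of 2.98 ± 0.19 or 7.89-fold. The set 1452183_a_at read 8.64, 8.12 and 8.63 against 11.98, 11.40 and 12.17 (3.39 ± 0.23, 10.5-fold). For both, TFEB-labelled array 2 was the lowest of its group and was still more than 2 log2 units above every GFP-labelled array.

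The other Meg3 sets spanned a wide range of differences. The set 1426758_s_at read 7.20, 7.20 and 7.33 against 10.49, 9.84 and 10.69 (3.10 ± 0.21, 8.56-fold), and 1436713_s_at read 6.84, 6.16 and 6.85 against 8.43, 8.09 and 8.48 (1.72 ± 0.21, 3.29-fold). The set 1436057_at read 6.03, 5.72 and 5.91 against 6.66, 6.11 and 6.29, where the groups were separated by only 0.08. Its log2 difference of 0.46 ± 0.15 was not past the threshold, and it was past it at 0.59 without TFEB-labelled array 2. The 5 sets thus differed among themselves by nearly 3 log2 units in their differences, and which Meg3 transcripts each one reads is not given in the files.

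Rian, a second noncoding RNA of the same maternally expressed stretch and a host of small nucleolar RNAs, was read by 3 probe sets. The set 1452899_at read 4.31, 4.22 and 4.79 against 7.18, 6.50 and 8.12, a log2 difference of 2.83 ± 0.39 or 7.10-fold. The set 1427580_a_at read 4.74, 4.67 and 5.12 against 6.81, 6.62 and 7.74 (2.21 ± 0.29, 4.64-fold). The groups were separate in both, with TFEB-labelled array 3 well above the others. The dimmest, 1428055_at, read 3.36, 3.12 and 3.31 against 5.08, 4.12 and 5.39 (1.60 ± 0.31, 3.03-fold), and among the member sets past the threshold it was the only one to lose its call in an alternative that still tested it, in 1 of 15.

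The growth-restraining members were less uniform. Grb10, the adaptor that binds activated insulin receptors, was higher by its bright set 1425458_a_at, which read 8.42, 7.99 and 8.15 against 10.04, 9.98 and 10.27. That difference was 1.91 ± 0.13 on the log2 scale, or 3.75-fold. Its dim sets overlapped between the groups, 1425457_a_at at 4.01, 4.20 and 4.30 against 4.41, 4.37 and 4.05 (0.11 ± 0.12) and 1430164_a_at at 5.39, 4.81 and 4.87 against 5.14, 5.16 and 5.37 (0.20 ± 0.16). The files do not say which Grb10 isoforms the 3 sets read.

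Cdkn1c, the p57 inhibitor of cyclin-dependent kinases, had the smallest difference among the bright member sets. It read 8.19, 7.81 and 8.34 in the GFP-labelled arrays and 8.49, 8.79 and 8.72 in the TFEB-labelled arrays. The groups did not overlap but were only 0.15 apart, and the log2 difference of 0.55 ± 0.15 (SE, n = 3 per group), 1.47-fold, was under the fold limit. It ranged from 0.40 to 0.66 over 17 alternatives and was past the threshold in 4 of them, at 0.66 without GFP-labelled array 3 and at 0.64 without TFEB-labelled array 1.

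**Figure D2:**
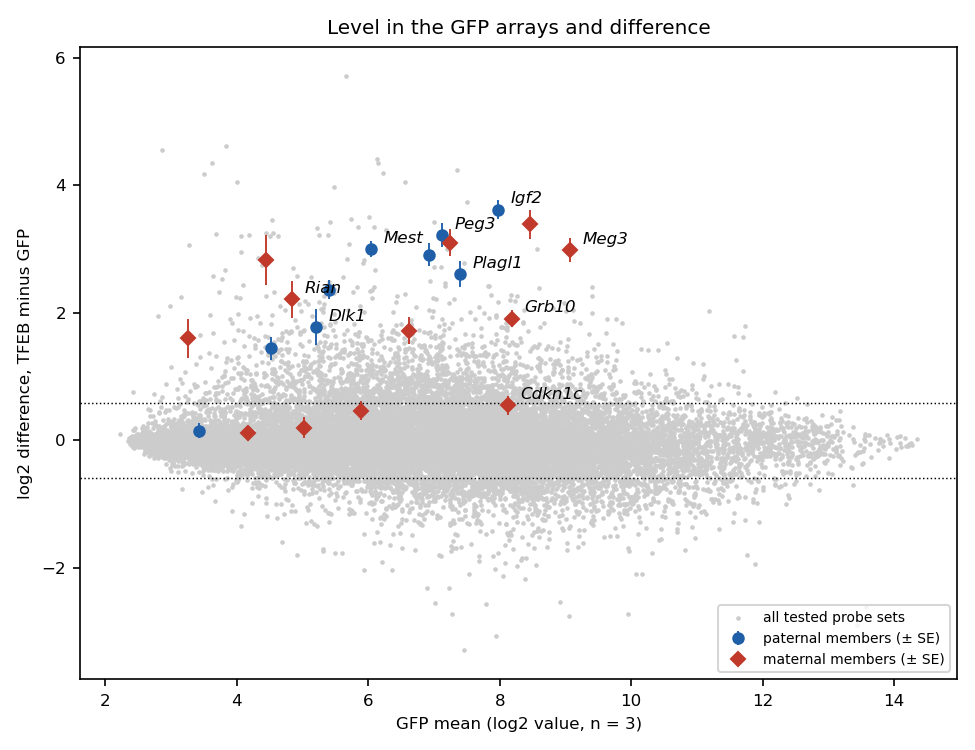
The x axis is the mean log2 value of the GFP-labelled arrays and the y axis the log2 difference, TFEB minus GFP, of each probe set (grey, all 22626; blue circles, paternally expressed members; red diamonds, maternally expressed members; bars, SE; dotted lines, 1.5-fold). The symbol is printed beside the brightest set of each gene, from 3.62 for Igf2 to 0.55 for Cdkn1c, and of the 5 sets not past the threshold 4 belong to genes whose brightest set was past it.

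With 1 probe set per gene, the brightest over the 6 arrays, 8 of the 9 genes were past the threshold, against 8.62% of the 12393 genes as higher and 4.9% as lower. The median log2 difference was 3.00 over the 5 paternally expressed genes and 2.06 over the 4 maternally expressed ones, against -0.05 over all genes. Split by the mean of the GFP-labelled arrays at its median over all probe sets, 9 of the 10 brighter and 7 of the 11 dimmer member probe sets were past the threshold, with differences from 0.55 to 3.62 and from 0.11 to 3.00. The share of all probe sets past the threshold in each part was not computed, so nothing is read from this split. The array gives no detection call in the files used here, so a dim set cannot be told apart from one that does not read its transcript.

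The replicate arrays were not alike across these genes. In all 9 probe sets of Dlk1, Meg3 and Rian, which lie together on chromosome 12, TFEB-labelled array 2 was the lowest of its group, and in 8 of the 9 array 1 came next and array 3 highest. Over all probe sets array 2 was the lowest in 33.3% and the full order held in 15.7%, while among the 1700 probe sets higher in the TFEB-labelled arrays the shares were 48.4% and 33.8%. In the other 12 member probe sets array 2 was the lowest in 5, the 2 of Plagl1 among them, and the full order held in 4. The range among the TFEB-labelled arrays had a median of 0.85 log2 units (0.39 to 1.62) for the 9 sets and 0.34 (0.21 to 0.84) for the other 12. That median was 0.20 over all probe sets and 0.33 over the 1700 higher ones. Between TFEB-labelled arrays 2 and 3, 4 member probe sets were more than 2-fold apart. The 9 sets share the same arrays and come from 1 chromosomal region, so they are not 9 separate observations.

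**Figure D3:**
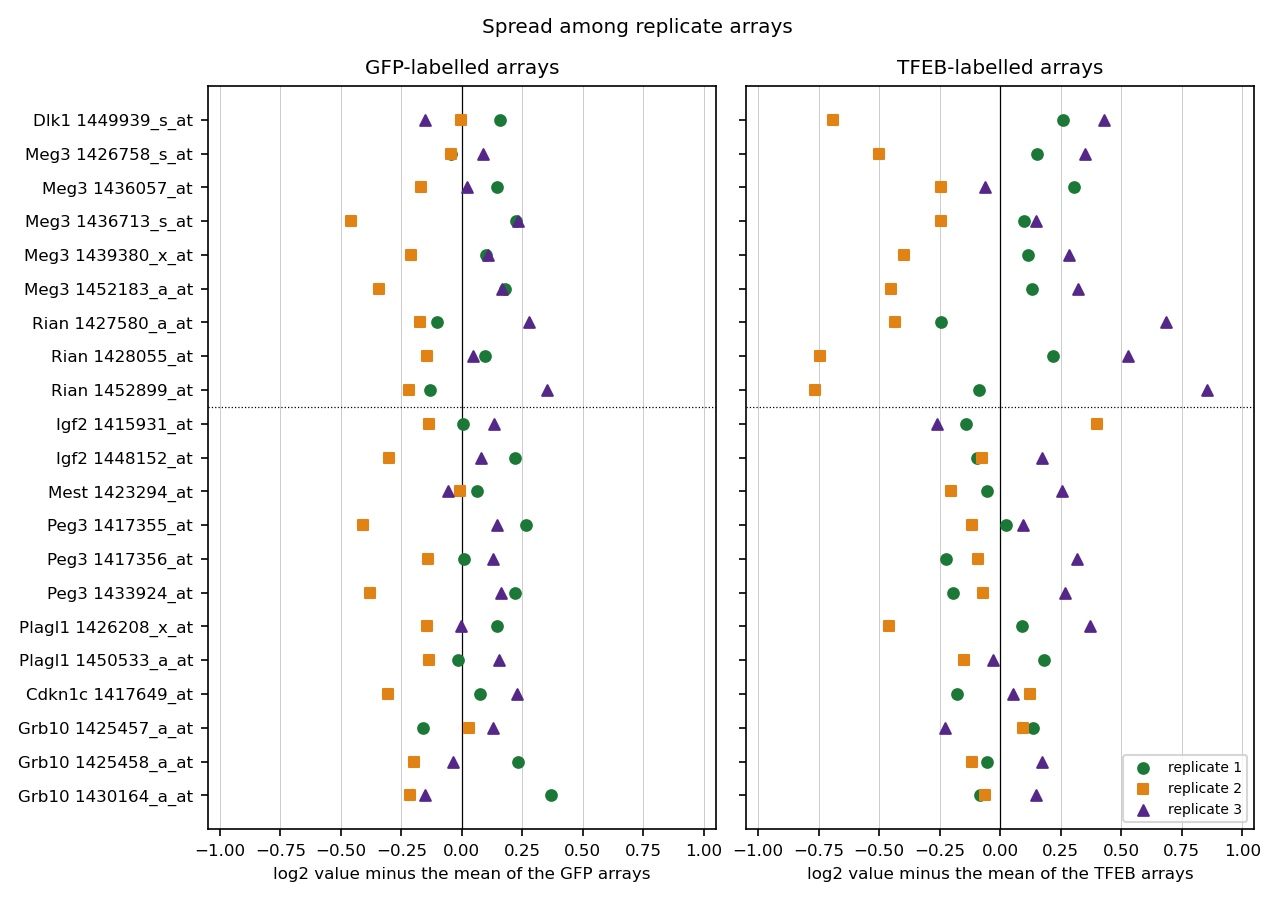
Each point is 1 array, placed by its log2 value minus the mean of its own group, with the GFP-labelled arrays on the left and the TFEB-labelled arrays on the right (the shape and colour give the replicate). Above the dotted line are the 9 probe sets of Dlk1, Meg3 and Rian, in which TFEB-labelled replicate 2 is the lowest in every row, and below it the other 12 member probe sets.

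Among the GFP-labelled arrays, replicate 2 was the lowest in 18 of the 21 member probe sets, against 49.9% of all probe sets and 35.8% of those higher in the TFEB-labelled arrays. That array is also the one that stood apart, with macrophage markers averaging 8.77 against 6.85 and 6.99 in its fellows. The member sets of its group ranged by a median of 0.32 log2 units.

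The genes most like 4 of the members were sought by their profile over the 6 arrays, as the smallest root mean square distance after each gene was centred on its own mean. Nearest to Igf2 were Atp1b4 (distance 0.171), a Na,K-ATPase beta-family gene of muscle, Myl4 (0.194), the embryonic and atrial myosin light chain, and Peg3 (0.213). Mest was nearest to Gm13889 (0.136), Meg3 (0.151) and Dmbt1 (0.191), and Meg3 to Msln (0.143), Mest (0.151) and Cpxm2 (0.171). Dlk1, with its low TFEB-labelled array 2, was nearest to Prom2 (0.124), Hamp2 (0.148) and 2010003K11Rik (0.202). These distances mostly measure how alike the difference between the groups is, and with 6 arrays they say nothing of shared control.

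The members were set beside a list of other imprinted mouse genes, each known as imprinted in at least some tissues. Which parental copy was active in the muscle profiled was not examined. Because the members were selected on this contrast, their distance from these genes and from the neighbours below is not a result. Of 27 further paternally expressed genes, 18 had a probe set, and 2 of the 18 rose while 0 fell, against 8.62% and 4.9% of all genes. Without GFP-labelled array 2, 1 of the 18 passed. Airn, the noncoding RNA that runs antisense through Igf2r, read 7.33, 7.11 and 7.47 against 7.99, 8.02 and 7.93 (log2 difference 0.68, adjusted p = 0.0043). Peg12 read 2.78, 2.94 and 2.87 against 3.37, 3.64 and 3.59, at the floor of the array (0.67, adjusted p = 0.0036). The median over the 18 was -0.05, the same as over all genes, and the other 16 did not pass by their brightest probe set. The count of 0 lower depends on that choice of probe set for Slc38a4, an amino acid transporter gene. Its brightest set by the mean of all 6 arrays read 9.73, 9.42 and 9.56 against 9.11, 9.07 and 9.23 (-0.43), whereas its other set read 10.21, 9.86 and 10.13 against 8.24, 7.95 and 7.72 and fell (-2.09, adjusted p = 0.00059). With the mean of the probe sets of a gene, or with the set of smallest p, 2 rose and 1 fell.

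Of 30 further maternally expressed genes, 23 had a probe set, of which 5 rose and 1 fell, against 8.62% and 4.9% of all genes. The median over the 23 was 0.08. Ampd3, an AMP deaminase, read 7.82, 7.63 and 7.64 against 9.19, 8.75 and 9.18 (1.34, adjusted p = 0.0013), and Tfpi2, a protease inhibitor, 4.56, 4.43 and 4.43 against 5.66, 5.60 and 6.20 (1.34, adjusted p = 0.0022). Igf2r, the receptor that carries Igf2 to the lysosome, rose by 0.76 (adjusted p = 0.0017), the cholesterol synthesis gene Dhcr7 by 0.70 (adjusted p = 0.0016) and Osbpl5 by 0.66 (adjusted p = 0.0058). Asb4 went the other way, from 8.45, 7.70 and 8.11 to 6.94, 6.66 and 6.72 (-1.31, adjusted p = 0.0037), and its second probe set also fell (-1.47, adjusted p = 0.0015). Ube3a, a ubiquitin ligase gene, was at -0.19 by its brightest set and fell by another of its 4 sets (-1.48, adjusted p = 0.0027), so that with the probe set of smallest p for each gene 5 rose and 2 fell.

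**Figure D4:**
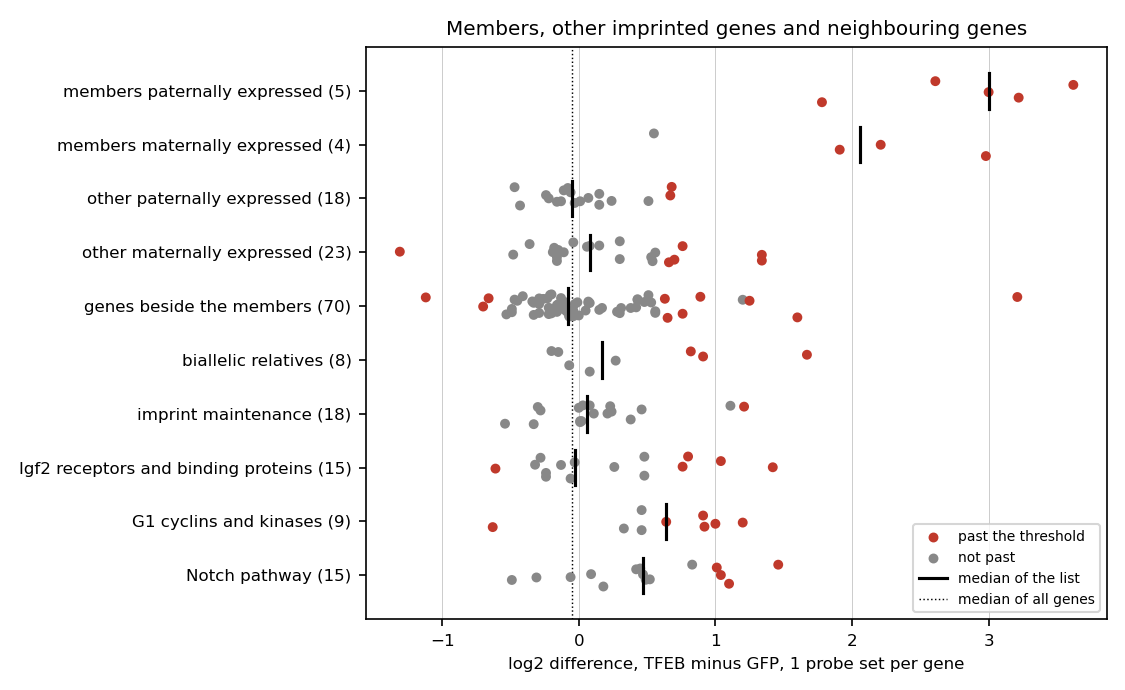
Each point is 1 gene, read by its brightest probe set, and the x axis is its log2 difference, TFEB minus GFP (red, past the threshold; grey, not past; black bar, median of the list; dotted line, median of all genes; in brackets, the number of genes). The members have medians of 3.00 and 2.06, the other listed imprinted genes medians of -0.05 and 0.08, and the 70 genes beside the members a median of -0.08. The members were selected on this same contrast, and the gene lists were chosen with earlier results of these data known. The distance between them is therefore not a result.

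The genes near the members along the chromosome were examined in the same way. On each side of the 7 sites that hold members, the 5 nearest genes with a probe set of 1 gene symbol were taken. They could lie at any distance, since genes without such a set were passed over. Of these 70 genes, 7 rose and 3 fell, against 8.62% and 4.9% of all genes, and the median log2 difference was -0.08. On 1 side of Grb10, Upp1, a uridine phosphorylase and the farthest of the 5 taken there, read 5.29, 5.44 and 5.42 against 8.42, 8.16 and 9.22 (3.21, adjusted p = 0.00071). Ddc, the aromatic amino acid decarboxylase next to Grb10 and itself imprinted in some tissues, read 4.08, 4.05 and 4.65 against 5.38, 5.92 and 6.28 (1.60, adjusted p = 0.0053). Beside Igf2, the tyrosine hydroxylase gene Th read 4.77, 5.31 and 5.08 against 6.33, 5.77 and 6.81 (1.25, adjusted p = 0.014). The remaining ones that rose did so by less than 1 log2 unit, Fuca2 beside Plagl1 by 0.89 (adjusted p = 0.0015), Dync1h1 and Hsp90aa1 beyond Rian by 0.76 and 0.65 (adjusted p = 0.0033 and 0.016) and Podxl near Mest by 0.63 (adjusted p = 0.0034). Second, dimmer sets of Fuca2 and Podxl were at -0.36 and -0.14, and the call of Hsp90aa1 was lost in 7 of 17 alternatives.

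The neighbours that fell were Lncpint near Mest (-1.12, adjusted p = 0.003), Phactr2 near Plagl1 (-0.70, adjusted p = 0.01) and Pno1 near Grb10 (-0.66, adjusted p = 0.0027). Around H19 and Igf2, the fast troponin genes Tnnt3 and Tnni2 were both at -0.10, the antisense gene Igf2os at -0.03 and Ins2 at -0.13, none of them past the threshold by the brightest set. Another set of Tnni2 fell (-0.62, adjusted p = 0.028), as did one of Zfp787 near Peg3 (-1.10, adjusted p = 0.0095), so that with the set of smallest p 7 neighbours rose and 5 fell. The imprinted neighbours of Peg3, Zim1 and Usp29, were at 0.15 and -0.16. Beside Cdkn1c, Phlda2, Slc22a18 and Kcnq1 were at -0.15, -0.04 and -0.11, and 0 of the 10 genes there passed.

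Igf2 signals through receptors that it shares with Igf1 and insulin, and binding proteins hold it outside the cell. Of 16 genes for these receptors, binding proteins, mRNA-binding proteins and first substrates, 15 had a probe set. Of the 15, 4 rose and 1 fell, against 8.62% and 4.9% of all genes, with a median of -0.03. The binding protein gene Igfbp4 read 10.33, 10.46 and 10.44 against 11.53, 11.88 and 12.07 (1.42, adjusted p = 0.0013). Igfbp7 read 10.23, 10.23 and 10.41 against 11.01, 11.60 and 11.39 (1.04, adjusted p = 0.0039), although 1 of its 3 probe sets was at -0.28, and 1 of the 6 sets of Igfbp4 was at 0.36 with overlapping groups. Igf2r was given above. Igfbp3 rose by 0.80 (adjusted p = 0.047), a call that was lost in 11 of 17 alternatives, among them the one without GFP-labelled array 2, where it was 0.51. The receptor substrate Irs2 fell by 0.61 (adjusted p = 0.0075), while Igf1r was at 0.48 and Insr at -0.03, both short of the threshold.

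Cdkn1c inhibits kinases that drive the cell through the G1 phase. Of 9 genes for G1 cyclins and their kinases, 5 rose and 1 fell, against 8.62% and 4.9% of all genes. The median log2 difference was 0.64. Ccnd1 read 6.92, 8.02 and 7.15 against 8.42, 8.50 and 8.79 (1.20, adjusted p = 0.019), and Ccnd3 read 7.10, 7.64 and 7.18 against 8.31, 8.22 and 8.40 (1.00, adjusted p = 0.0039). Cdk2 rose by 0.92 (adjusted p = 0.0087), Ccna2 by 0.91 (adjusted p = 0.046) and Cdk4 by 0.64 (adjusted p = 0.0057), and Ccne2 fell by 0.63 (adjusted p = 0.036). The calls of Ccna2, Ccne2 and Ccnd1 were lost in 10 of 16, 7 of 17 and 4 of 17 alternatives. The count of 6 rests on few arrays, with 3 without GFP-labelled array 3, 3 without TFEB-labelled array 2 and 2 without TFEB-labelled array 3.

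Relatives of the members in their gene families that are not known as imprinted were read for comparison. Of 8, 3 rose and 0 fell by their brightest probe set, against 8.62% and 4.9% of all genes, with a median of 0.17. The p21 gene Cdkn1a, a relative of Cdkn1c, read 7.75, 8.30 and 7.78 against 9.36, 9.48 and 9.98 (1.67, adjusted p = 0.0024), Grb14, a relative of Grb10, 8.09, 8.12 and 8.36 against 9.22, 9.17 and 8.91 (0.91, adjusted p = 0.0026), and Igf1 9.46, 8.74 and 9.48 against 9.84, 10.16 and 10.15 (0.82, adjusted p = 0.027). The other sets of Igf1 were at 0.32 and 0.07 (adjusted p = 0.2 and 0.77) with overlapping groups, and with the mean of the probe sets of a gene 2 of the 8 passed. The call of Igf1 was lost in 5 of 17 alternatives, among them the one without GFP-labelled array 2, at 0.58. The brightest set of Cdkn1b was at -0.15, while its other set fell from 6.81, 6.43 and 6.13 to 5.57, 5.89 and 5.44 (-0.82, adjusted p = 0.02), so that with the set of smallest p 3 rose and 1 fell. Plag1 at -0.20, Plagl2 at 0.27, Dlk2 at -0.07 and Grb7 at 0.08.

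The Notch pathway, to whose ligands Dlk1 is related, had 15 of 15 listed genes on the array. Of the 15, 4 rose and 0 fell, against 8.62% and 4.9% of all genes, with a median of 0.47. The receptor genes Notch4, Notch3 and Notch1 rose by 1.46, 1.10 and 1.04 (adjusted p = 0.00049, 0.0018 and 0.0028) and the ligand gene Dll1 by 1.01 (adjusted p = 0.0014). A second, dimmer set of Notch4 was at -0.25 and overlapped between the groups. The pathway inhibitor Numb was at -0.49 and the ligand gene Jag1 at 0.49, both under the fold limit.

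Of 23 listed factors that set or keep imprints, 18 had a probe set. By the brightest set 1 of the 18 rose and 0 fell, against 8.62% and 4.9% of all genes, with a median of 0.06. With the set of smallest p 3 rose, among them the DNA methyltransferase genes Dnmt1 (0.74, adjusted p = 0.031, against 0.38 by its brightest set) and Dnmt3a (0.72, adjusted p = 0.0087, against 0.11). The helicase gene Hells read 3.59, 4.87 and 3.60 against 5.04, 5.06 and 5.60 (1.21, adjusted p = 0.042), and its call was lost in 8 of 15 alternatives. Without GFP-labelled array 2, which was high for Hells, 4 of the 18 passed, and without any other single array 0 did. Mbd3, Ctcf, which insulates Igf2 from its enhancers on the maternal copy, and Eed were at -0.54, -0.33 and -0.30, with adjusted p of 0.0041, 0.013 and 0.015 and differences under the fold limit.

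Marker genes of other cells of muscle were read beside these results, because in a bulk sample fewer cells of a type and less RNA per cell cannot be told apart. Over all genes, 8.62% were past the threshold as higher and 4.9% as lower. Of 7 satellite cell and myoblast markers, 4 were past the threshold as higher, Myog by 3.47, Mymk by 2.57, Myf5 by 0.94 and Msc by 0.90. Pax7, Myod1 and Cdh15 were at 0.26, 0.17 and 0.10, not past it and with overlapping groups. The mean of the list was 5.61 to 5.80 in the GFP-labelled arrays and 6.79 to 7.09 in the TFEB-labelled arrays. The fibroblast list was at 9.83 to 9.89 against 10.68 to 11.01, with 5 of 8 past the threshold, Col1a1 by 2.27. Its genes Pdgfra, Dcn and Thy1 were at 0.51, -0.03 and 0.81 and were not past it. The endothelial list was at 7.0 to 7.31 against 8.04 to 8.19, with 4 of 6 past the threshold. Tek and Vwf, at 0.25 and 0.12, were not. The list of smooth muscle and pericytes was at 8.34 to 8.80 against 9.30 to 9.45, with 2 of 6 past the threshold. These were Acta2 by 1.99 and Pdgfrb by 1.71, while Rgs5, Cspg4, Myh11 and Tagln were at 0.48, 0.37, 0.23 and 0.04. Macrophage markers overlapped between the groups at 6.85 to 8.77 and 8.27 to 9.01, with 1 of 8 past the threshold. Neutrophil markers ran from 4.51 to 4.64 and from 5.38 to 5.63, with 2 of 4 past the threshold. These were S100a8 by 3.25 and S100a9 by 0.60, while Csf3r and Mpo were at 0.10 and -0.16 with overlapping groups.

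In the other lists at most 1 gene was past the threshold in either direction. Lymphocyte markers were at 4.93 to 5.91 and 5.01 to 5.23, adipocyte markers at 7.11 to 8.09 and 6.79 to 7.21 and Schwann cell markers at 7.05 to 7.65 and 6.47 to 7.02, with 0 genes past the threshold in each of the 3. Genes of dividing cells ran from 4.94 to 6.71 in the GFP-labelled arrays, array 2 being the highest, and from 6.56 to 6.99 in the TFEB-labelled arrays, with 1 of 6 past the threshold as higher and 1 as lower. The part of any of these cell types in the values of the imprinted growth genes was not tested.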

How the data were processed

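The authors deposited log2 expression values, 1 for each probe set on each array. The submitters' processing notes name RMA and the affy package, with no versions. RMA corrects background, equalises the arrays' distributions and summarises each set's probes, so a common shift of most genes would be lost in part and changes of dim sets compressed. The values themselves showed the log2 scale (2.20 to 14.4, array medians 6.44 to 6.56). The 64 control probe sets were left out and 22626 tested, of which 20380 carried 1 gene symbol, 691 several and 1555 none. Of the former, 20351 were found by Entrez identifier in RefSeq, with 0 symbols differing, and they named 12393 genes.

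TFEB-labelled and GFP-labelled arrays (3 each, called biological replicates in the labels) were compared with limma 3.58.1 in R 4.3.3 (lmFit, eBayes, two-sided, Benjamini-Hochberg over all probe sets), after a test on simulated data. The threshold was an adjusted p under 0.05 and a fold of at least 1.5. Each gene was represented by its brightest probe set, by the mean of all 6 arrays, a choice that settled some calls where sets of a gene disagreed. Tables were made in Python 3.11.15 with pandas 2.3.3 and figures with matplotlib 3.10.9. The members and gene lists were chosen with earlier results of these data known. Named were every member, up to 6 genes of smallest p in each direction of each list (or 2 where none passed), neighbours past the threshold, marker genes, and the 3 most similar profiles of 4 members. Alternatives were leaving out each array, a replicate block, other scalings, array weights, a prior trend, filters on dim sets, other fold limits, other ways to read a gene and the methods' t-test. The number of arrays limits the precision. Neighbours were taken by gene order in RefSeq, and promoter and microRNA sequences from RefSeq on GRCm38.p6.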

Additional observations from a re-analysis of the deposited data

How the results depend on the processing

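Differences of 57 probe sets, those of the members and of the list and neighbouring genes past the threshold, were recomputed under the alternatives, and of the 947 values 0 changed sign and 862 kept their side of the threshold. Other differences named in the text were not recomputed. Member probe sets past the threshold numbered 16, with 11 to 17 over the alternatives. As the members were selected on these same arrays, their counts in this section are a description and lend no support. The lowest count came where only the brighter part of the array was tested. That filter removes 9 of the 21 member sets, 5 of which were among the 16. Leaving out 1 array gave 16 to 17 for the members, 2429 to 4222 for all probe sets (3082 with all arrays), 1 to 2 for the other paternally and 5 to 8 for the other maternally expressed genes, 4 for the Igf2 list, 2 to 7 for the G1 genes, 4 to 6 for Notch, 2 to 3 for the relatives, 0 to 4 for imprint maintenance and 8 to 14 for the neighbours. Without GFP replicate 2, 1 of the other paternally expressed genes passed. With no fold limit, 7368 probe sets passed, with 6 of the other paternally and 12 of the other maternally expressed genes, 9 Notch, 4 imprint maintenance and 23 neighbouring genes. With a fold change of at least 2, 1031 probe sets passed, with 0, 3, 2 (Igf2 list), 2 (G1), 1 (relatives) and 4 (neighbours), and 16 member sets. The methods' t-test gave 2 G1 and 0 imprint maintenance genes. With dim sets removed below the lower quartile or the median, 1 other paternally expressed and 0 imprint maintenance genes passed in both, and 6 neighbours under the median. Imprint maintenance counts were also 0 with an intensity trend, 2 with arrays shifted to equal medians, 3 with array weights and 3 by the probe set of smallest p. Shifting arrays to equal medians changed the split from 1700 higher and 1382 lower to 1475 and 1789, with a shift of -0.07 in the median. The causes of these changes were not tested.

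The labels do not say whether replicate numbers pair the samples. Same-numbered deviations correlated at 0.42, 0.17 and -0.23, and 1 of 3 samples matched its own number best. With so few arrays these values cannot decide whether the samples were paired. With a replicate block, 3052 probe sets and 16 member sets passed, and 0 imprint maintenance genes. Signal over background was not analysed here, so the low values of dim sets are not a measure of absence.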
